A study of Rattus norvegicus with 6 samples.

Results

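The 32 genes described here encode proteins of the lysosome and their inhibitors: 7 cysteine cathepsins, 4 other proteases, 3 cystatins, 6 membrane proteins, 6 glycosidases, and 6 proteins that handle lipids or nucleic acids. They were chosen as a list of symbols, with earlier results of these data known, and all 32 were found among the 25399 genes listed in the count matrices. Single-cell RNA was counted in rat brain (Sprague Dawley, age given as post-natal day 21), with 3 libraries from sham-operated rats and 3 from rats with pontine infarction, an ischaemic lesion of the pons. The labels name no transgene or drug, give no interval between lesion and sampling, and do not say whether a library is 1 animal or a pool, so the p-values measure the spread between these libraries, which may be in part technical.

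Lysosomes are acidic compartments in which hydrolases break down material delivered by phagocytosis, endocytosis and autophagy. A proton pump acidifies the lumen, membrane glycoproteins line it, and transporters export the products, cholesterol among them. Cystatins bind and block cysteine cathepsins, some outside the cell and some inside it. Microglia, the resident phagocytes of the brain, and macrophages are rich in these enzymes, and lysosomal genes often carry CACGTG elements close to the start of transcription that transcription factors of the TFEB family can bind.

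The proximal promoters of 3 members are shown because they hold that element and because Ctsd, Cstb and Lamp1 carry contrasts described below. Each window runs 5' to 3' on the gene's own strand from 250 bases before to 50 bases after the start of the RefSeq gene (assembly GRCr8), on the minus strand at chr1:206968772-206969071 for Ctsd, chr20:10247150-10247449 for Cstb and chr16:83075014-83075313 for Lamp1. Capitals mark CACGTG.
Ctsd: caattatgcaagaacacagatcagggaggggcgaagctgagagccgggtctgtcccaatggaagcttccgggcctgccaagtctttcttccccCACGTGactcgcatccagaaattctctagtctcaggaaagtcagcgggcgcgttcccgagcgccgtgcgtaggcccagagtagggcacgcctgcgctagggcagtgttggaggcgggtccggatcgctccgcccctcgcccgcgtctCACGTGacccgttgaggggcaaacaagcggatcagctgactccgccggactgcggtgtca
Cstb: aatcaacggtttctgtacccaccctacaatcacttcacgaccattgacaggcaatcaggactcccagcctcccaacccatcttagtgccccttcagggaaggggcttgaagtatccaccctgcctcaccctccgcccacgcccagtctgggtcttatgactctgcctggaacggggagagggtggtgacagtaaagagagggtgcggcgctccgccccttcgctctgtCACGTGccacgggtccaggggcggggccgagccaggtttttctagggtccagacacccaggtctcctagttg
Lamp1: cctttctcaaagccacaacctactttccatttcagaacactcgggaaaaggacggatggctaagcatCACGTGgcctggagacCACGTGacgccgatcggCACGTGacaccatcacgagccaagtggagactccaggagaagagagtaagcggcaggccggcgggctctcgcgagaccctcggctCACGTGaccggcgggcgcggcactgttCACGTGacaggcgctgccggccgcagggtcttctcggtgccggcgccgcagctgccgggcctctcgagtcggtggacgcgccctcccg
The Lamp1 window holds 5 matches, with first bases 183, 167, 150, 65 and 38 bases before the start. The Ctsd window holds 2, at 157 and 10 bases before the start, and the Cstb window 1, at 22 bases before it. A promoter was found for 27 members (not for Ctsb, Hexa, Psap, Ppt1 or Atp6v0d2), and 6 of the 27 hold CACGTG, the others being Cd63, Gaa and Glb1. Among all 33469 RefSeq promoters of that length, 6.42% hold it, 0.52% hold it at least 2 times, and 1 promoter, that of Lamp1, holds it 5 times. The longer TCACGTG, which contains CACGTG and was searched on both strands, occurs in 5 of the 27 and in 3.2% of all promoters. A match is a string of letters and says nothing of occupancy, and the 6 genes did not share a direction of change: Gaa and Glb1 fell in both phagocyte classes described below while Ctsd, Cstb and Cd63 rose in both.

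After removal of low-quality barcodes and likely doublets, 37853 of 44011 barcodes remained, 5873 to 7255 per library with 50976410 to 62875211 unique molecular identifiers (UMIs, counted RNA molecules). Clusters were computed without the lysosomal genes and named from marker genes. Microglia-like cells numbered 406, 1121 and 1776 in the sham libraries and 874, 1709 and 1008 after infarction, and macrophage-like cells 134, 130 and 116 against 697, 1399 and 1734. The infarction libraries held 2049, 1403 and 975 neutrophil-like cells and 111, 95 and 164 dendritic-like cells, against at most 44 of either in a sham library, so these classes have levels but no test. Smooth-muscle-like cells made up 34.2% to 45.1% of each sham library, and none were found after infarction. The sham libraries were therefore dominated by vessel wall cells and the infarction libraries by leukocytes. Any pair of libraries shared 8 to 21 cell barcodes.

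Some RNA in droplets is not from the cell itself, and this background differed between the groups. Summed over 10 smooth muscle markers, the level in microglia-like cells lay between 925 and 1133 CPM (a gene's share of all UMIs of the class, here with the scaling by edgeR described below) in the sham libraries and between 5.89 and 7.1 after infarction. In macrophage-like cells the same sum was 1456 to 1592 against 1.48 to 13.8. Its part in the results below was not tested.

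In the sham brain, most members were highest in microglia-like cells. Of the 31 members with more than a few UMIs, 19 had their highest mean level there among the 10 classes with at least 20 cells in every sham library, and 6 were highest in macrophage-like cells. Cst3, which encodes the secreted cysteine protease inhibitor cystatin C, reached 140000 ± 2700 CPM (SD, n = 3) in sham microglia-like cells, where it alone was 14.1%, 14.2% and 13.7% of all UMIs in the 3 libraries. Ctss, cathepsin S, the cathepsin of antigen-presenting cells, was at 659 ± 27.1 CPM in microglia-like and 157 ± 31.7 CPM in macrophage-like cells, and at 1.18 ± 0.825 CPM in smooth-muscle-like cells. The microglia-like libraries lay above the libraries of the class ranked next, without overlap, for both genes.

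Other members had their sham maximum elsewhere. Cd68, macrosialin, a glycoprotein of macrophage endosomes, was at 784 ± 56.2 CPM in macrophage-like and at 94.2 ± 9.53 CPM in microglia-like cells. Ctsk, cathepsin K, a collagen-degrading protease, was at 416 ± 55.1 CPM in fibroblast-like and 26.1 ± 3.22 CPM in pericyte-like cells. Cst7, cystatin F, an inhibitor made by leukocytes, was at 77.4 ± 27.5 CPM in T or NK-like cells against 16.2 ± 6.98 CPM in macrophage-like cells. For these 3 genes the libraries of the highest class did not overlap those of the next named class. The unnamed clusters together, left out of this ranking, overlapped the highest class for Ctsk (280 ± 217 CPM) and Cst7 (56.05 ± 41.3), and were at 314 ± 169 CPM for Cd68. The ranking was not resolved for Ctsb, Cstb, Grn, Npc1, Hexa, Tpp1, Ppt1 and Gaa, whose highest classes overlapped between libraries; Npc1 and Gaa had their highest mean in astrocyte-like cells and Cstb in endothelial-like cells. Classes with at least 20 cells in only 1 or 2 sham libraries were higher for some members: choroid-plexus-like cells held 504 ± 20.3 CPM of Gaa and 1487 ± 165 CPM of Ctsd (n = 2), and neutrophil-like cells 1028 CPM of Cstb in 1 library.

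**Figure D1:**
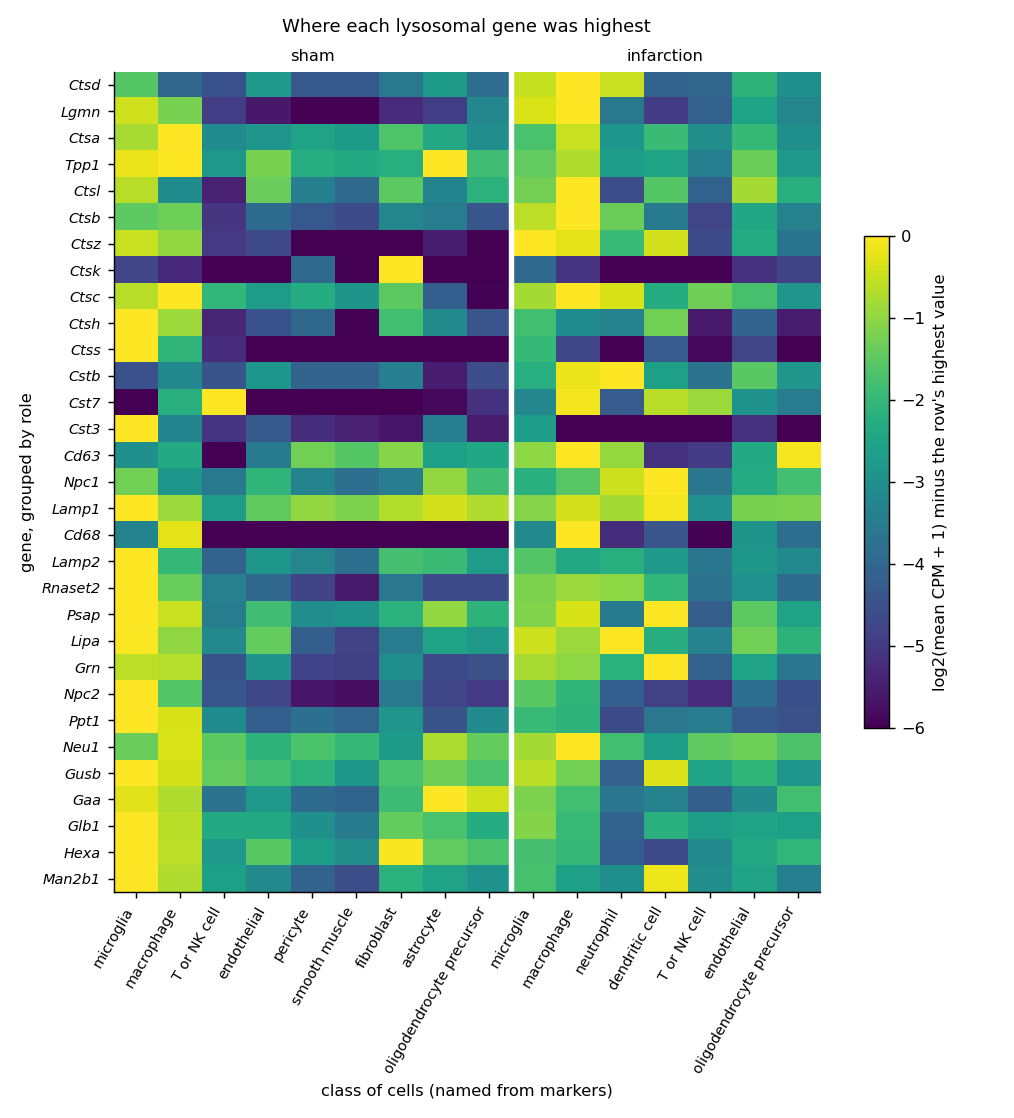
Mean level of 31 members (rows, grouped by role) in the classes with at least 20 cells in all 3 libraries of a group (columns, except neurons), as log2(CPM + 1) minus the highest value of the row over both groups. In the sham columns the bright squares sit mostly under microglia. After infarction they spread over the microglia, macrophage, neutrophil and dendritic columns.

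After infarction, of the 31 members, 12 were highest in macrophage-like cells, 10 in microglia-like, 7 in dendritic-like and 2 in neutrophil-like cells, among the 7 classes with at least 20 cells in every infarction library. Neutrophil-like and dendritic-like cells were too few in sham to be ranked there, so the 2 counts rest on different classes. The unnamed clusters, 29.4% of infarction cells, were not ranked. The dendritic-like class was a cluster named from Flt3, Siglech and Tcf4. A cluster led by MHC class II genes with Ccl17 and Clec9a was among the unnamed ones. Ctsd, the aspartic protease cathepsin D, was at 3258 ± 327 CPM in macrophage-like and 2304 ± 257 CPM in neutrophil-like cells. Cstb, cystatin B, which inhibits cathepsins inside the cell, was at 4245 ± 579 CPM in neutrophil-like and 3774 ± 237 CPM in macrophage-like cells, with overlapping libraries. Cst3 stayed highest in microglia-like cells, at 22080 ± 5780 CPM.

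The same classes were then compared between infarction and sham with edgeR's quasi-likelihood test on UMIs summed per library, with Benjamini-Hochberg adjustment over all genes tested and a call at an adjusted p under 0.05. Levels in these comparisons are CPM scaled by edgeR's trimmed-mean factors (scaled CPM). They are shares of a class's UMIs, so a fall in share need not be a fall in molecules per cell. Median depth was 4943 to 5147.5 UMIs in sham microglia-like cells and 15103.5, 4434 and 6507 in the infarction libraries. In macrophage-like cells it was 4803 to 6396 in sham and 14017 to 18547 after infarction. The part of depth in the results was not tested. In microglia-like cells, 31 members were tested, 7 rose, 19 fell and 5 did not pass the test. Among all 10505 genes tested in that class, 32.4% rose and 31.8% fell, and the median log2 fold change was -0.02, against -0.95 over the 31 members. The libraries of the 7 that rose and the 19 that fell did not overlap between groups, which held for 35.5% of all genes upward and 34.6% downward. Atp6v0d2, a subunit of the proton pump made in osteoclasts and some macrophages, had 17 UMIs in all libraries together, none in microglia-like cells, and was not tested in any class.

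In macrophage-like cells, 15 of the 31 members rose, 10 fell and 6 did not pass the test. Among all 9536 genes tested there, 28.7% rose and 28.1% fell, and the median log2 fold change was -0.02, against 0.42 over the members. The groups did not overlap for the 15 that rose and for 9 of the 10 that fell, against 33.3% and 31.9% of all genes. The macrophage-like class was made of different cells in the 2 groups. In the sham libraries 99.7% of it belonged to cells whose leading genes include Cxcl13, Lyve1 and Mrc1 (called border-type here, since Lyve1 and Mrc1 mark macrophages of the brain borders), and after infarction 88.7% lay in a cluster led by Apoc1, Fabp4 and Gpnmb and 6.37% in one led by interferon response genes. Of the 15 macrophage markers tested in this class, 7 rose and 6 fell, and their sum went from 11910 to 16600 up to 34720 to 44050 scaled CPM. All 13 tested microglia markers fell in the macrophage-like class, from a summed 13170 to 15010 down to 1052 to 1814 scaled CPM. Of 7 monocyte markers 6 rose, from 195 to 265 up to 1998 to 2556. Their part in the result was not tested. Only 66, 64 and 57 border-type cells were left to compare in the infarction libraries. Within that cluster alone, an alternative chosen after seeing the data, 7 members rose and 8 fell. The share of all genes called there was not computed, so these counts have no background beside them.

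Composition shifted within microglia-like cells too. In sham, 73.0% belonged to the cluster with Tmem119 and P2ry12 as its first genes, whose leading genes also include Cst3 and Ctss, and 22.9% in a cluster of shallow cells with a median of 1127 UMIs. After infarction, 39.0% lay in a cluster of dividing cells led by Mki67 and Top2a, 31.4% in one led by Ccl4 and Gpr84, 21.9% in the shallow cluster and 7.69% in the Tmem119 cluster. All 14 microglia markers fell with the lysosomal genes, from a summed 22780 to 26850 scaled CPM down to 12100 to 14420, and 10 of 13 macrophage markers rose, from 2788 to 3671 up to 4791 to 5789. The median mitochondrial share of these cells was 4.77% to 5.12% in sham and 7.09% to 7.63% after infarction. Their part in the result was not tested.

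**Figure D2:**
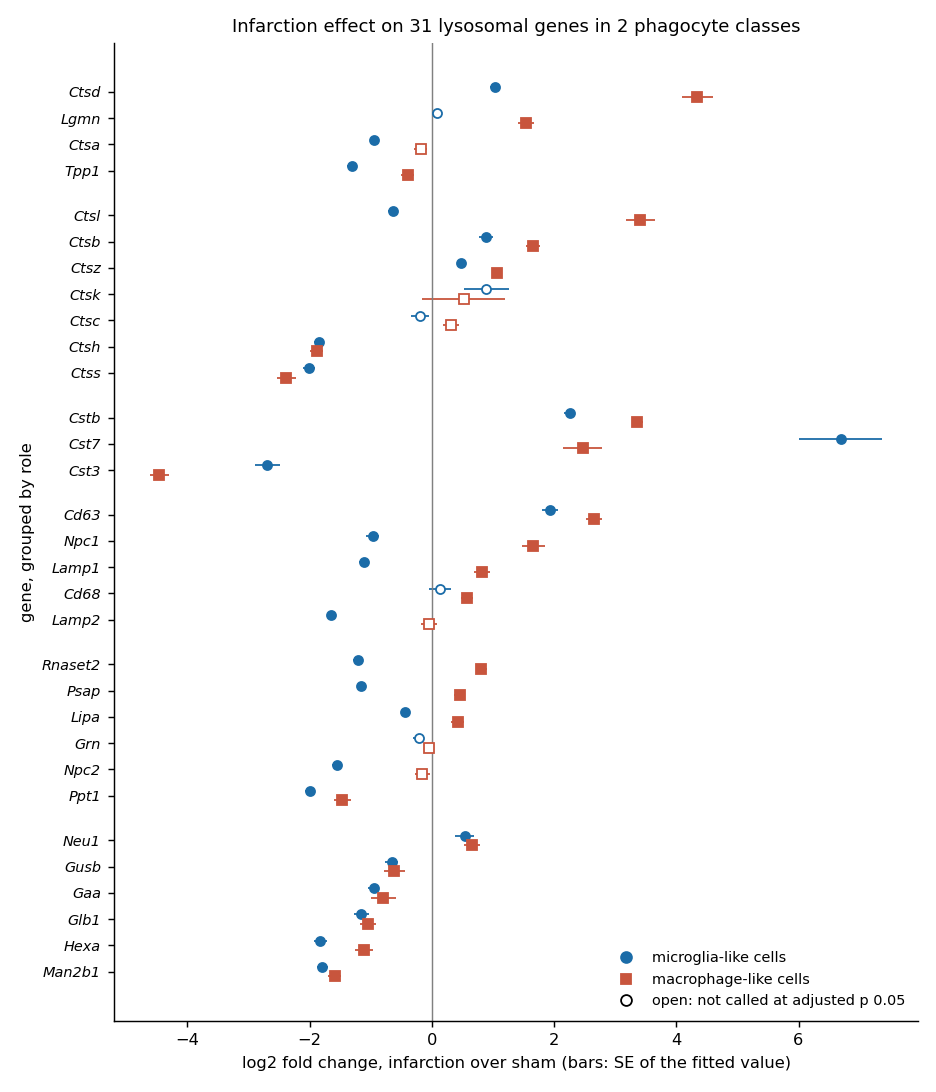
Log2 fold change of infarction over sham (x axis) for 31 members (y axis, grouped by role) in microglia-like (blue circles) and macrophage-like cells (red squares). Bars are standard errors derived from the test's F statistic, and open symbols did not pass the test. The effect was called higher in macrophages for 22 members and lower for Cst3, and Ctsd and Ctsl lie furthest apart among them.

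Of the 3 cystatins, 2 rose and 1 fell in each phagocyte class. Cst3 was at 141500, 144300 and 137500 scaled CPM in the sham microglia-like sums and at 15480, 26200 and 24010 after infarction. Every infarction library lay below every sham library, a log2 fold change of -2.69 ± 0.21 (SE, adjusted p = 0.000105, edgeR). In macrophage-like cells Cst3 went from 10200, 15480 and 12690 to 570.1, 616.6 and 566.3 scaled CPM, a log2 fold change of -4.46 ± 0.151 (adjusted p = 1.75e-08, edgeR). Within the border-type cluster alone the fall was smaller, at -1.70 ± 0.202 (adjusted p = 3.75e-05, edgeR). The unscaled Cst3 level of infarction macrophage-like cells, 522 ± 26.1 CPM, was no higher than that of neutrophil-like cells, at 711 ± 372 CPM, so whether these macrophages made the transcript at all was not resolved. Sham smooth-muscle-like cells carried 3216 ± 210 CPM of Cst3 beside 14300 ± 2850 CPM in sham macrophage-like cells.

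Within microglia-like cells, Cst3 differed by cluster after infarction. Its mean was 70770 CPM in the Tmem119 cluster (n = 2 libraries with at least 20 such cells), 31880 ± 8765 in the shallow cluster, 25380 ± 5199 in the Ccl4 cluster and 14480 ± 2951 in the dividing cluster. In sham, the Tmem119 cluster was at 141200 ± 3084 CPM and the shallow cluster at 153900 ± 24580 CPM. The level after infarction was thus below the sham level also within each of these 2 clusters, a description without a test.

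Cstb went the other way in both classes. Microglia-like sums had 173.5, 181.6 and 209.2 scaled CPM in sham and 925.4, 849.9 and 925.4 after infarction, a log2 fold change of 2.25 ± 0.0848 (adjusted p = 3.36e-08, edgeR). Macrophage-like sums had 383.3, 408.6 and 437.0 against 3924, 4447 and 4301, a log2 fold change of 3.36 ± 0.0941 (adjusted p = 1.01e-09, edgeR). The groups did not overlap in either class, and the border-type cluster alone gave 1.54 ± 0.141 (adjusted p = 2.99e-08, edgeR). The secreted inhibitor Cst3 and the intracellular inhibitor Cstb therefore moved in opposite directions within the same library sums.

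Cst7 rose in both classes from very low sham levels. Sham microglia-like cells had 1, 0 and 0 UMIs of Cst7, and infarction cells 86, 82 and 97, a ratio of pooled levels of 128 with an exact 95% counting interval of 22.8 to 5070, which covers counting error only. The called rise rested on levels under 10 scaled CPM, and the dividing cluster held 211 of these UMIs. In macrophage-like cells Cst7 went from 14.3, 8.45 and 20.4 to 91.4, 90.1 and 58.0 scaled CPM, a log2 fold change of 2.47 ± 0.315 (adjusted p = 0.000133, edgeR), and the groups did not overlap. The highest Cst7 level after infarction, 286 ± 23.2 CPM, was in an unnamed cluster of 1707 infarction cells led by the MHC class II genes RT1-Bb and RT1-Ba with Ccl17 and Clec9a.

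Among the 7 cysteine cathepsins, 2 rose, 3 fell and 2 did not pass the test in microglia-like cells, and 3, 2 and 2 did so in macrophage-like cells. Ctss was at 690.0, 639.7 and 661.9 scaled CPM in sham microglia-like cells and at 142.2, 173.0 and 180.8 after infarction, a log2 fold change of -2.01 ± 0.0936 (adjusted p = 1.02e-07, edgeR). In macrophage-like cells it fell from 109.9, 147.8 and 161.7 to 30.6, 23.8 and 26.8, a log2 fold change of -2.38 ± 0.155 (adjusted p = 2.05e-07, edgeR). No infarction library reached a sham library in either class, and the border-type cluster alone gave -0.88 ± 0.188 (adjusted p = 0.00139, edgeR). Ctsh, cathepsin H, an aminopeptidase, had a nearly equal fold change in the 2 classes. Its microglia-like sums were 2526, 2435 and 2572 against 617.6, 776.7 and 705.2 scaled CPM (log2 fold change -1.84 ± 0.0856), and its macrophage-like sums 1212, 1321 and 1075 against 310.0, 312.3 and 357.2 (-1.88 ± 0.104). Both falls passed edgeR's test, at adjusted p = 1e-07 and 6.02e-08, and in the border-type cluster alone the value was -0.45 ± 0.147.

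Ctsb, cathepsin B, a broad endopeptidase, rose in both classes. It went from 1528, 1505 and 1317 to 2664, 2265 and 3099 scaled CPM in microglia-like cells (log2 fold change 0.88 ± 0.115, adjusted p = 0.00019, edgeR). In macrophage-like cells it went from 1438 ± 145 to 4556 ± 699 (SD, n = 3), a log2 fold change of 1.66 ± 0.117. Ctsz, the carboxypeptidase cathepsin Z, was at 1655, 1689 and 1699 against 2261, 2423 and 2361 scaled CPM in microglia-like cells. Its log2 fold change was 0.48 ± 0.0581 there (adjusted p = 4.97e-05, edgeR) and 1.07 ± 0.082 in macrophage-like cells. The groups did not overlap for either gene in either class.

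Ctsl, cathepsin L, changed in opposite directions. In microglia-like cells it went from 1699, 1508 and 1598 down to 961.1, 1098 and 1021 scaled CPM, a log2 fold change of -0.64 ± 0.0729 (adjusted p = 3.23e-05, edgeR). In macrophage-like cells it went from 175.5, 296.7 and 305.3 up to 2630, 2373 and 3309, a log2 fold change of 3.41 ± 0.241 (adjusted p = 2.19e-05, edgeR). The sham order of the classes was thus inverted after infarction, and the border-type cluster alone also rose, by 1.5 ± 0.209 (adjusted p = 0.000123, edgeR). Ctsc, cathepsin C, the activator of granule serine proteases, and Ctsk passed the test in neither class. Ctsc had log2 fold changes of -0.19 and 0.31, and Ctsk, at a mean under 30 scaled CPM in every group, 0.89 and 0.52.

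Of the 4 other proteases, Ctsd had the highest fold change of the members in macrophage-like cells. It was at 125.4, 163.6 and 247.4 scaled CPM in sham and at 3415, 3441 and 4088 after infarction, a log2 fold change of 4.34 ± 0.251 (adjusted p = 8.12e-06, edgeR). In microglia-like cells the values were 1051, 999.1 and 1212 against 2243, 2074 and 2356, a log2 fold change of 1.03 ± 0.0846 (adjusted p = 3.39e-06, edgeR). All infarction libraries lay above all sham libraries in both classes, and the border-type cluster alone gave 1.99 ± 0.349 (adjusted p = 0.00835, edgeR). Lgmn, legumain, which cleaves after asparagine and processes cathepsins, rose in macrophage-like cells from 738 ± 102 to 2149 ± 326 scaled CPM (log2 fold change 1.54 ± 0.129). Its microglia-like level was 1435 ± 16.1 in sham and 1516 ± 132 after infarction, with overlapping libraries and no call. Tpp1, tripeptidyl peptidase 1, fell in both classes, by 1.30 and 0.39 on the log2 scale. Ctsa, cathepsin A, a carboxypeptidase that shields neuraminidase and beta-galactosidase, fell by 0.95 in microglia-like cells and had -0.18 in macrophage-like cells, without a call.

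**Figure D3:**
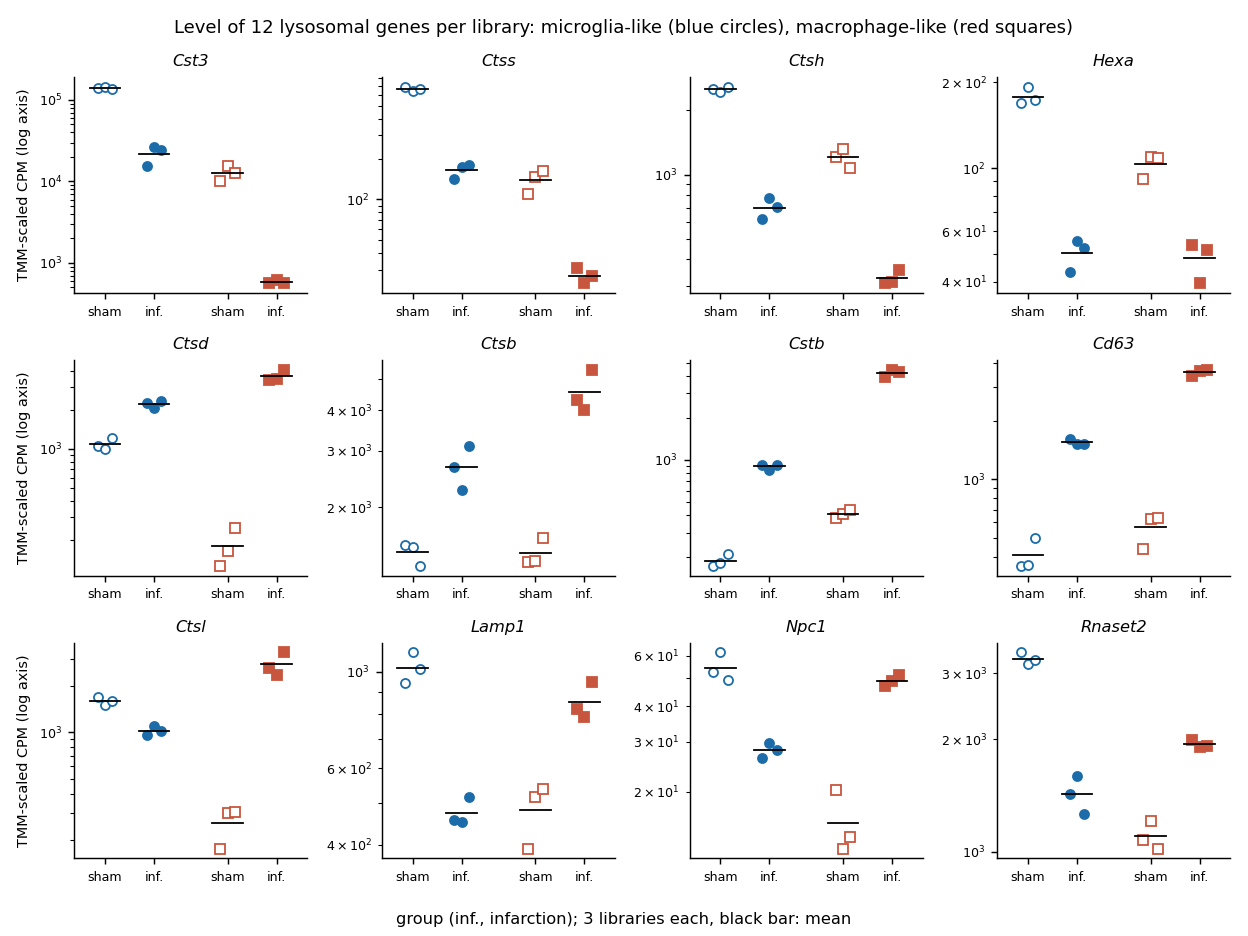
Level of 12 members in each library (points; y axis, scaled CPM on a log axis) in microglia-like (blue circles) and macrophage-like cells (red squares), sham open and infarction filled, with black bars for the means of 3 libraries. Cst3, Ctss, Ctsh and Hexa lie lower after infarction in both classes, Ctsd, Ctsb, Cstb and Cd63 higher in both, and Ctsl, Lamp1, Npc1 and Rnaset2 move in opposite directions.

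Of the 5 membrane proteins tested, 1 rose and 3 fell in microglia-like cells, and 4 rose and none fell in macrophage-like cells. Cd63, a tetraspanin of late endosomes and secretory granules, was the member that rose in both. It went from 358.8, 361.1 and 497.9 to 1625, 1518 and 1523 scaled CPM in microglia-like cells (log2 fold change 1.93 ± 0.129, adjusted p = 4.92e-06, edgeR). In macrophage-like cells it went from 438.2, 626.1 and 634.1 to 3416, 3638 and 3680 (2.66 ± 0.133, adjusted p = 5.87e-08, edgeR), and no libraries overlapped. Lamp1 and Lamp2, the abundant glycoproteins of the lysosomal membrane, both fell in microglia-like cells. Lamp1, whose promoter is printed above, went from 943.0, 1109 and 1015 to 456.5, 450.3 and 514.0 there (log2 fold change -1.11 ± 0.0818, adjusted p = 1.59e-06, edgeR) and from 391.6, 514.2 and 537.7 to 822.7, 789.2 and 947.1 in macrophage-like cells (0.82 ± 0.124, adjusted p = 0.000143, edgeR). Lamp2 fell from 1489 ± 16.9 to 477 ± 27.8 scaled CPM in microglia-like cells and stood at 328 ± 54.9 and 319 ± 27.8 in macrophage-like cells.

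Npc1, the membrane protein that exports cholesterol from the lysosome, had low levels and opposite directions. It was at 52.9, 61.7 and 49.3 scaled CPM in sham microglia-like cells and 26.4, 29.6 and 28.0 after infarction, a log2 fold change of -0.96 ± 0.107 (adjusted p = 2.8e-05, edgeR). In macrophage-like cells it was at 20.3, 12.7 and 13.9 against 46.9, 49.1 and 51.4, a log2 fold change of 1.66 ± 0.184 (adjusted p = 1.26e-05, edgeR). The macrophage rise did not pass the test within the border-type cluster, at 0.19 ± 0.332 (adjusted p = 0.711, edgeR). Cd68 rose in macrophage-like cells from 701 ± 63.1 to 1049 ± 68.9 scaled CPM (log2 fold change 0.58 ± 0.095). In microglia-like cells it stood at 94.98 ± 9.77 and 103.5 ± 24.7, with overlapping libraries.

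Of the 6 glycosidases, 5 fell and 1 rose in each class, though the size of the effect differed between the classes for Hexa and Man2b1 in the test described below. Hexa, the alpha subunit of the hexosaminidase that degrades GM2 ganglioside, went from 168.9, 192.5 and 172.8 to 43.3, 55.7 and 52.5 scaled CPM in microglia-like cells (log2 fold change -1.82 ± 0.104, adjusted p = 3.28e-07, edgeR). Its macrophage-like sums went from 91.9, 109.8 and 108.2 to 53.7, 39.6 and 51.6 (-1.10 ± 0.146, adjusted p = 5.12e-05, edgeR). Man2b1, lysosomal alpha-mannosidase, went from 267.6, 239.1 and 242.6 to 66.6, 79.0 and 70.7 in microglia-like cells (-1.79 ± 0.0853, adjusted p = 1.18e-07, edgeR). In macrophage-like cells it went from 146.9, 124.6 and 135.0 to 44.6, 46.2 and 44.9 (-1.58 ± 0.107, adjusted p = 2.74e-07, edgeR). For these 2 genes no infarction library overlapped a sham library in either class.

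Glb1, beta-galactosidase, fell by 1.15 and 1.04 on the log2 scale in microglia-like and macrophage-like cells. Gaa, acid alpha-glucosidase, which degrades glycogen, fell by 0.95 and 0.79, and Gusb, beta-glucuronidase, by 0.66 and 0.61. Gaa in macrophage-like cells was the 1 call among the members whose libraries overlapped, with 66.87 scaled CPM in the lowest sham and 66.93 in the highest infarction library. Neu1, the neuraminidase that removes sialic acids, was the glycosidase that rose. It went from 32.3, 29.98 and 43.2 to 59.3, 50.6 and 46.0 scaled CPM in microglia-like cells (log2 fold change 0.54 ± 0.153, adjusted p = 0.0121, edgeR), with a narrow gap between the groups, and by 0.66 ± 0.129 in macrophage-like cells.

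Of the 6 genes that handle lipids or nucleic acids, 5 fell and none rose in microglia-like cells, while 3 rose and 1 fell in macrophage-like cells. Ppt1, which removes palmitate from proteins, fell in both, from 257.3, 239.5 and 255.0 to 57.9, 69.5 and 61.0 scaled CPM in microglia-like cells (log2 fold change -1.996 ± 0.0847, adjusted p = 6.52e-08, edgeR). The macrophage-like values were 161.2, 215.4 and 144.6 against 67.0, 65.6 and 57.3 (-1.46 ± 0.142, adjusted p = 4.6e-06, edgeR), again without overlap. Rnaset2, an acid ribonuclease, went from 3281 ± 117 to 1427 ± 166 in microglia-like cells and from 1101 ± 98.3 to 1937 ± 48.7 scaled CPM in macrophage-like cells. Psap, the precursor of the saposins that assist sphingolipid breakdown, went from 2900 ± 135 to 1303 ± 114 and from 1814 ± 201 to 2495 ± 88.7. Lipa, the acid lipase that frees cholesterol from its esters, had log2 fold changes of -0.44 ± 0.0723 and 0.42 ± 0.105. For these 3 genes both changes passed edgeR's test.

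Npc2, the soluble carrier that hands cholesterol to Npc1, fell from 5374 ± 144 to 1838 ± 193 scaled CPM in microglia-like cells (log2 fold change -1.55 ± 0.081). Its macrophage-like levels of 1564 ± 87.2 and 1407 ± 253 did not pass the test. Grn, progranulin, a precursor of lysosomal granulins, passed in neither class, with -0.21 ± 0.0886 (adjusted p = 0.0578, edgeR) and -0.05 ± 0.0871.

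Whether the infarction effect differed between the 2 classes was tested as an interaction of class and group in edgeR. This was a joint fit of both classes with its own scaling, so its values are not exact differences of the fold changes above. The effect was higher in macrophage-like than in microglia-like cells for 22 members and lower for 1, Cst3, while among all 11377 genes tested 17.1% were higher and 15.5% lower, 32.7% in all. The 6 members that fell in microglia-like and rose in macrophage-like cells, Ctsl, Lamp1, Npc1, Lipa, Psap and Rnaset2, were among the 22. Their differences on the log2 scale were 4.19 ± 0.332, 2.07 ± 0.0928, 2.76 ± 0.206, 0.99 ± 0.117, 1.75 ± 0.0742 and 2.15 ± 0.0988. No difference was called for Ctsh, Ctss, Neu1, Gaa, Glb1 and Gusb, whose values lay between -0.25 and 0.27, or for Ctsk and Cst7. With the macrophage-like class limited to the border-type cluster, 21 members were higher and 3 lower. The share of all genes called in that limited comparison was not computed. The value changed sign for Cst3 (1.17 ± 0.229), Cstb (-0.57 ± 0.129), Cd63 (-0.56 ± 0.139) and Ctsb (-0.32 ± 0.178). The calls of Cd68, Ctsc and Grn were lost with that cluster alone (adjusted p = 0.987, 0.053 and 0.245, edgeR). Some members without a difference called for the whole class were thus among the 21 called higher with that cluster. Ctsh and Ctss fell less within that cluster than in microglia-like cells, as given above. Grn also lost its call without sham library 1 or infarction library 1 or 3, and Man2b1 without sham library 2 or infarction library 1 or 3 (adjusted p = 0.0627 to 0.156, edgeR). Cst3 lost its call when sham library 3 was left out, at -1.545 ± 0.329 (adjusted p = 0.0587, edgeR).

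Other genes of the pathway were drawn from a list of 84 companions, 81 of them in the files. Their counts stand beside 32.4% of all genes higher and 31.8% lower in microglia-like cells, and 28.7% and 28.1% in macrophage-like cells. Of the 16 proton pump genes, 10 rose and 1 fell in microglia-like cells (median log2 fold change 0.53), and 14 rose and 1 fell in macrophage-like cells (median 1.37). Atp6v0c, the subunit that forms the proton-carrying ring, went from a mean of 581 to 1579 scaled CPM in microglia-like cells (1.44 ± 0.073) and from 697 to 3517 in macrophage-like cells (2.33 ± 0.11). Atp6v1b2, a catalytic-sector subunit, rose by 1.25 ± 0.078 and 2.91 ± 0.11. Atp6ap1, an accessory protein, was the 1 pump gene that fell in both classes, by 0.76 and 0.51.

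Of 27 companion hydrolases tested in microglia-like cells, 5 rose and 18 fell, with a median log2 fold change of -0.78, and of 26 in macrophage-like cells 5 rose and 10 fell, with a median of -0.07. Ctsf, cathepsin F, fell by 2.67 and 1.90 on the log2 scale in the 2 classes. Dnase2, the acid nuclease that degrades engulfed DNA, rose by 0.58 and 0.96. Of 15 membrane proteins and transporters tested in each class, 1 rose and 7 fell in microglia-like cells, against 32.4% and 31.8% of all genes. In macrophage-like cells 3 of the 15 rose and 6 fell, against 28.7% and 28.1% of all genes. The list was not tested as a set. Laptm5, a lysosomal protein of leukocytes, fell in both, by 1.38 and 0.98.

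Among the regulators, 5 of 8 rose in microglia-like cells and 7 of 7 in macrophage-like cells, with none lower. Mitf, a transcription factor of the TFEB family, went from a mean of 15.4 to 77.0 scaled CPM in macrophage-like cells (2.31 ± 0.23). Tfec, another of that family, went from 0.82, a level near 0, to 13.2 in microglia-like cells (3.73 ± 0.44). The family did not rise as a whole in microglia-like cells. Mitf rose there by 0.34 ± 0.132, and Tfe3, at a mean of 1.43 in sham, was not called (-0.61 ± 0.378). Of 5 sorting genes tested in each class, Igf2r, the large mannose 6-phosphate receptor, rose by 1.55 and 2.65, and Sort1, sortilin, fell by 0.82 and 2.93. Each change named in these companion lists, except that of Tfe3, passed edgeR's test.

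**Figure D4:**
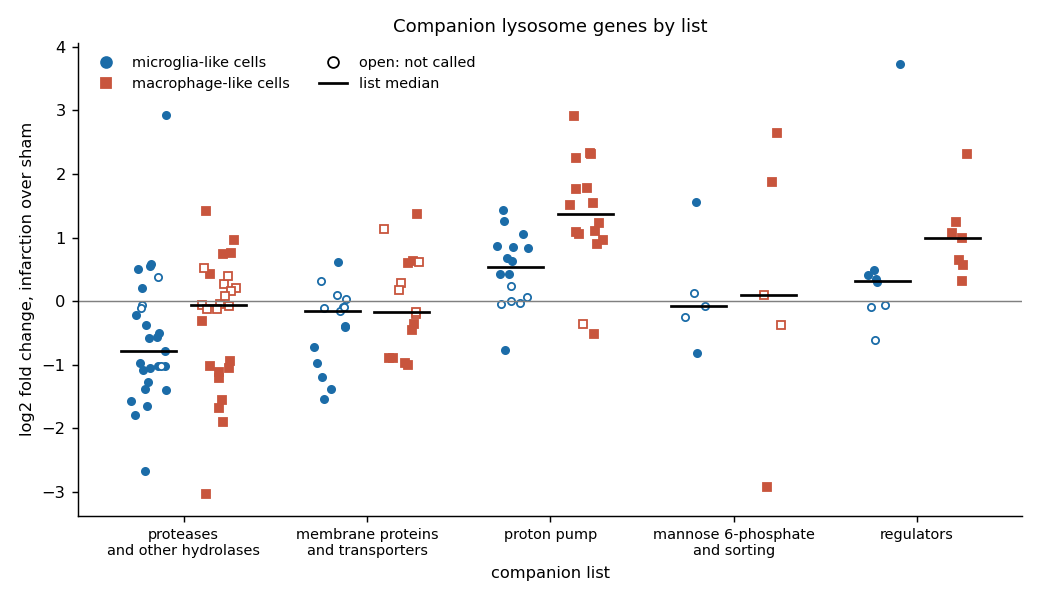
Log2 fold change of infarction over sham (y axis) for companion lysosome genes in 5 lists (x axis) in microglia-like (blue circles) and macrophage-like cells (red squares); open symbols did not pass the test, and black lines are list medians. The proton pump medians, 0.53 and 1.37, lie above 0, and the hydrolase medians, -0.78 and -0.07, below it.

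Leukocytes that were near absent from sham had distinct lysosomal profiles after infarction. Neutrophil-like cells, with a median of 1613 to 2202 UMIs per library, were high in Cstb and Ctsd and in Lipa, at 199 ± 30.7 CPM against 145 ± 8.77 in microglia-like cells. They held 102 ± 22.3 CPM of Ctsl and 8.38 ± 1.4 CPM of Ctss. The dendritic-like class had Siglech, Spib and Ptcra among its leading genes and did not include the unnamed cluster with Ccl17 and Clec9a. It was highest among the 7 classes for Ctsh, at 1026 ± 70.6 CPM, Grn, at 1834 ± 68.4, Psap, at 2884 ± 159, and Man2b1, at 223 ± 11.3. Its Cst3 level was 1087 ± 260 CPM, and its Lgmn level 62.0 ± 4.54 CPM against 1919 ± 283 in macrophage-like cells. These are CPM levels in classes of different depth and are not tested between classes.

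A cluster of 3906 infarction cells led by Fcnb, Vcan and Ccl24 carried macrophage and monocyte markers in equal number and stayed unnamed. It had 4101 ± 293 CPM of Cstb, 3264 ± 235 of Ctsb, 2533 ± 220 of Ctsd and 897 ± 48.6 of Cd68, and with 328 ± 94.2 CPM of Cst3. The unnamed cluster led by RT1-Bb was lower for the proteases, at 701 ± 59.7 CPM of Ctsb, 615 ± 42.9 of Ctsd and 195 ± 29.8 of Ctsl.

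In the other 3 classes with at least 20 cells in every library, no member fell. T or NK-like cells had 25 members tested and 1 called, against 4.83% of 4681 genes called higher and 2.69% lower. That member, Cstb, went from 214.0, 187.1 and 170.4 to 360.0, 318.7 and 312.4 scaled CPM (log2 fold change 0.79 ± 0.154, adjusted p = 0.00327, edgeR), and the groups did not overlap. In these cells 3 of 4 tested macrophage markers rose, from a summed 70.7 to 455 up to 373 to 462 scaled CPM, and the median mitochondrial share went from 4.75% to 5.76% up to 6.9% to 9.28%. Their part in the result was not tested. Endothelial-like cells had 11 of 26 members called higher, against 6.63% of 5992 genes higher and 6.78% lower, and oligodendrocyte-precursor-like cells 5 of 26, against 6.09% of 8095 genes higher and 5.56% lower.

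In endothelial-like cells, Lgmn went from 23.2, 42.3 and 44.6 to 255.0, 547.7 and 272.7 scaled CPM (log2 fold change 3.26 ± 0.363, adjusted p = 0.000685, edgeR). Ctsz went from 67.5, 83.7 and 108.6 to 313.2, 898.1 and 328.8 (2.56 ± 0.502, adjusted p = 0.0287, edgeR), Ctsb from 280.0, 234.7 and 259.1 to 666.5, 1027 and 718.7, and Cd68 from 0, 6.23 and 0 to 94.7, 185.3 and 117.2. Infarction library 2 was the highest for each of these 4 genes. The Ctsz call was lost without any 1 of the sham libraries (adjusted p = 0.0578 to 0.124, edgeR). With coarser clusters (resolution 0.5) neither Ctsz nor Lgmn passed, at adjusted p = 0.135 and 0.0537 (edgeR).

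Macrophage markers and signs of RNA quality moved with these values. The median mitochondrial share of endothelial-like cells was 6.75% to 8.37% in sham and 11.8% to 14.2% after infarction, and their median depth 6579 to 7140 and 3769 to 4078.5 UMIs. In endothelial-like cells 5 of 6 tested macrophage markers rose and none fell, from a summed 2723 to 4730 up to 8534 to 10870 scaled CPM. Lyve1 and Stab1 were at 0 after infarction, and Cd163 was at 0 in both groups. The endothelial-like level after infarction was 13.4% of the macrophage-like level for Cd68, 17.7% for Lgmn, 23.8% for Ctsz and 19.1% for Ctsb. Other phagocyte genes had means of 7.86% for Fabp5, 8.41% for Spp1, 16.2% for Gpnmb and 23.8% for Tyrobp. Lyz2 was at 31.9%, Apoe at 39.2% and C1qa at 130%. The infarction libraries spread widely for C1qa, from 28.5% to 321%, and for Spp1, from 2.99% to 19.1%. C1qa was also a marker of the microglia-like clusters. The range was 4.66% to 9.99% for Fabp5 and 26.3% to 37.2% for Lyz2. Whether these genes shared a source was not tested. The part of the markers and of RNA quality in the result was not tested.

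Oligodendrocyte-precursor-like cells rose in Cd63, from 665.5, 707.4 and 331.5 to 3631, 3605 and 2509 scaled CPM (log2 fold change 2.51 ± 0.387, adjusted p = 0.00985, edgeR), 94.3% of the macrophage-like level. Cstb went from 126.2, 177.4 and 193.1 to 992.3, 500.7 and 414.4, Ctsz from 29.6, 17.9 and 29.0 to 321.7, 170.7 and 116.4, and Cd68 from 1.56, 7.97 and 4.29 to 137.6, 47.7 and 33.8. Infarction library 1 was the highest in each, and the calls of Cd63, Cstb and Cd68 were lost without infarction library 2 (adjusted p = 0.0521, 0.0633 and 0.0541, edgeR) and without sham library 1 (adjusted p = 0.0555, 0.108 and 0.0822, edgeR). Cd68 also lost its call without sham library 3 (adjusted p = 0.0579, edgeR) and Cstb without sham library 2 (0.0539). In these cells 3 of 4 tested neutrophil markers rose, from a summed 44.0 to 243 up to 914 to 4252 scaled CPM. Of 5 macrophage markers 3 rose, but the sum over that list overlapped, at 1517 to 3879 in sham and 1572 to 3175 after infarction. Their median depth was 2735 to 6309 UMIs in sham and 4517, 1398 and 1336 in the infarction libraries. The part of these values in the result was not tested. For Cd68, Cstb and Ctsz the level was 6.89%, 15.5% and 9.15% of the macrophage-like level.

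Summed over all kept cells, 22 of 31 members rose, 2 fell and 7 did not pass the test, against 33.2% and 38.1% of 14613 genes, 71.3% in all. The groups did not overlap for 24 members upward and 2 downward, against 36.5% and 41.3% of all genes. In such sums, more cells of a type and more RNA per cell cannot be told apart. Cstb went from 209.4, 194.7 and 218.7 to 3461, 3534 and 3423 scaled CPM (log2 fold change 4.06 ± 0.087, adjusted p = 6.97e-06, edgeR), and Cd68 from 16.0, 21.8 and 26.3 to 675.0, 660.9 and 790.5 (5.05 ± 0.226, adjusted p = 1.77e-05, edgeR). Cst7 went from 1.39, 1.31 and 1.2 to 100.1, 114.8 and 83.8 (6.26 ± 0.166, adjusted p = 7.39e-06, edgeR). Ctsb (3.39 ± 0.174), Ctsz (3.34 ± 0.427) and Lgmn (2.83 ± 0.26) followed, all without overlap between the groups.

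The 2 that fell in the whole sums were Cst3 and Hexa. Cst3 had 8167, 14960 and 25750 scaled CPM in sham and 5605, 7545 and 5617 after infarction (log2 fold change -1.38 ± 0.413, adjusted p = 0.0236, edgeR), and its sham values followed the share of microglia-like cells, 6.87%, 17.7% and 27.1%. Without infarction library 1 or 3 the call was lost (adjusted p = 0.0765 and 0.0775, edgeR). Hexa had 43.9, 56.7 and 51.0 against 36.0, 37.3 and 43.9 (-0.37 ± 0.128, adjusted p = 0.0384, edgeR), and lost its call without sham library 2 or 3 or infarction library 1 or 2 (adjusted p = 0.0722 to 0.132). Ctss, which fell in both phagocyte classes, had 27.7, 55.1 and 113.5 against 60.7, 60.6 and 53.5 in the whole sums, with overlapping groups.

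The cells that supplied the UMIs changed. In sham, microglia-like cells gave 92.1% ± 2.97 of Ctss UMIs, 75.1% ± 12.6 of Cst3 and 70.2% ± 16.7 of Npc2 (SD, n = 3). Smooth-muscle-like cells gave 51.0% ± 7.52 of Cd63 and 45.5% ± 7.14 of Cstb, fibroblast-like cells 50.3% ± 2.28 of Ctsk, and T or NK-like cells 51.1% ± 10.9 of Cst7. Choroid-plexus-like cells gave 54.9% ± 41.0 of Gaa, 44.3% ± 35.2 of Psap and 38.6% ± 32.5 of Ctsd, and these shares had a wide spread because sham library 3 held 17 such cells against 185 and 384 in the others.

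After infarction, macrophage-like cells gave 43.9% ± 16.1 of Cstb UMIs, 47.1% ± 16.4 of Ctsd and 50.5% ± 16.2 of Ctsl, against 2.77%, 0.691% and 1.02% in sham. Unnamed clusters gave 41.4% ± 10.5, 27.9% ± 8.48 and 33.2% ± 13.1 of the same genes. Microglia-like cells still gave 81.2% ± 3.81 of Cst3 and 66.6% ± 4.14 of Ctss. Cst7 came mostly from the unnamed clusters, at 68.8% ± 6.03.

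**Figure D5:**
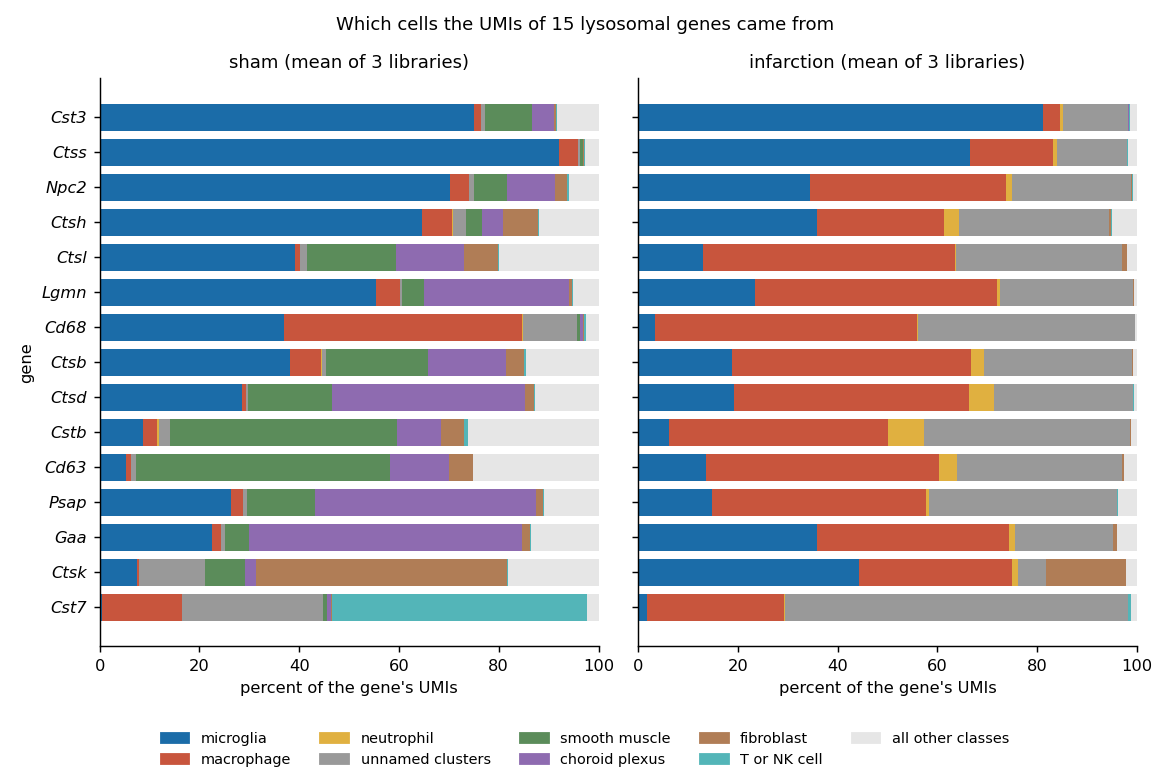
Share of each member's UMIs (x axis, percent, mean of 3 libraries) that lay in cells of each class, for 15 members (y axis) in sham and infarction. Smooth muscle (green) and choroid plexus (purple) take large shares in sham and none that can be seen after infarction, where macrophages (red) and unnamed clusters (dark grey) take their place.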

How the data were processed

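Droplet libraries (10x Genomics 3' V3.1) were made from rat brain in 3 sham and 3 infarction samples, per the labels' protocols. The authors deposited 1 matrix of UMI counts per library, with gene and barcode lists; the submitters' processing notes name CASAVA 1.8, Cell Ranger 3.1.0 and Seurat 2.3.4, and the genome build is not given in the sources used here. Every deposited barcode had at least 500 UMIs.

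The members and all lists were chosen with earlier results of these data known. Cells with at least 500 UMIs, 200 genes and at most 20% mitochondrial UMIs were kept, and Scrublet scores above 0.25 removed 1.74% to 2.79% per library as doublets. With scanpy 1.11.5, 2000 variable genes (7 lysosomal genes taken out), 30 components, 15 neighbours and Leiden resolution 1.0 gave 29 clusters. A cluster was named from at least 3 markers, and 3 clusters stayed unnamed. Deposited counts were summed per library and class (at least 20 cells in every library) and tested with edgeR 4.0.16 (quasi-likelihood, trimmed-mean factors, filterByExpr, Benjamini-Hochberg over all genes). The standard error of an edgeR log2 fold change was derived as its absolute value over the square root of the test's F statistic. The test was checked on simulated data. Members called with a mean of at least 20 scaled CPM were named by their highest and lowest fold changes, 6 per direction in the 2 phagocyte classes and all cells and up to 4 elsewhere, and the remaining members are given by level or fold change. Companion genes were named from the 4 with the lowest p per list and direction.

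Alternatives were DESeq2 1.42.0, other scaling, filters, clusterings and left-out libraries. The result of 1 companion gene is not reported here.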

Additional observations from a re-analysis of the deposited data

Results flagged for a closer look

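The infarction effect of 23 members differed between macrophage-like and microglia-like cells in edgeR's test of class by group (adjusted p under 0.05). The values are macrophage-like minus microglia-like effects on the log2 scale, from a joint fit of both classes with its own scaling. They are not exact differences of the separate fold changes. Grn had -0.21 in microglia-like and -0.05 in macrophage-like cells in the separate tests, and 0.29 in the joint fit. For Man2b1 these values were -1.79, -1.58 and 0.34. The wide differences were those of Ctsl (4.19), Ctsd (3.47), Npc1 (2.76), Rnaset2 (2.15), Lamp1 (2.07), Psap (1.75), Lamp2 (1.73), Lgmn (1.59), Npc2 (1.51). Smaller positive differences were those of Cstb (1.23), Tpp1 (1.04), Lipa (0.99), Ctsb (0.91), Ctsa (0.90), Cd63 (0.85), Hexa (0.84), Ctsz (0.72), Ppt1 (0.67), Ctsc (0.62), Cd68 (0.60), Man2b1 (0.34), Grn (0.29). The 1 negative difference was that of Cst3 (-1.58). Different clusters made up the macrophage-like class in the 2 groups (99.7% border-type cells in sham, 88.7% cells of the Apoc1 and Gpnmb cluster after infarction), so a difference between classes and a difference between clusters cannot be told apart in these values.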

How the results depend on the processing

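Alternative values were counted for 64 combinations of a member and a class or difference. These were the members named by their highest or lowest fold changes, and the called differences between classes. The other called members of a class were not in this count. Of 778 alternative values, 740 kept direction and call, 34 lost the call and 4 changed sign. The 4 were the macrophage minus microglia differences of Cd63 (-0.56), Cst3 (1.17), Cstb (-0.57) and Ctsb (-0.32) with only the cluster that holds most sham macrophage-like cells, an alternative chosen after seeing the data, as were library totals in place of scaling factors and the removal of the shallow microglia cluster. With that cluster alone, the members higher in macrophage-like cells went from 15 to 7, and those with a lower difference from 1 to 3. No share over all genes was computed beside these counts. The cause was not tested.

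The small counts of members that fell moved most. In all kept cells the 2 lower members became 1 with DESeq2 size factors or DESeq2, 4 with library totals or a limit of 10% mitochondrial UMIs, and 6 without smooth muscle, pericyte and choroid-plexus-like cells. Leaving out 1 library gave 0 to 2 (0 without infarction library 1, 1 without sham library 2 or infarction library 2 or 3). The lower differences numbered 0 to 2 (0 without sham library 3, 2 without infarction library 1 or 3). Over the 3 other classes, 17 higher calls became 10 to 18 (10 without infarction library 2, 11 without sham library 1 or 2), and no lower call became 4 with library totals or no low-count filter, 1 with DESeq2 and 0 to 2 with 1 library left out (2 without sham library 1, 1 without sham library 3 or infarction library 3). The replicate block gave 2 lower calls there and moved no other count by over 1.5 times. The labels name no batch, so whether same-numbered libraries belong together is not known. Such libraries had deviations correlated at 0.0793, 0.0889 and 0.027 in microglia-like and 0.00425, 0.0379 and -0.0148 in macrophage-like cells. Each number correlated best with its own in microglia-like but not in macrophage-like cells. In precursor-like cells the values were 0.242, -0.0766 and 0.506, with the first and the third best with their own number, and 0.111 was the highest in all cells.

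Library totals shifted the median of all genes by -0.465 in all cells, -0.325 in macrophage-like, -0.155 in endothelial-like and -0.171 in oligodendrocyte-precursor-like cells, and DESeq2 size factors by at most 0.0626. Depth limits Atp6v0d2, Cst7 and Ctsk. Endothelial-like and precursor-like sums rested on 42 to 261 infarction cells per library.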

Other observations

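Some sham classes with too few infarction cells to compare were also rich in single members. Schwann-like cells, with 94 cells in sham and at least 20 in 2 of the libraries, had 46750 ± 10990 CPM of Cst3 (SD, n = 2) and 227 ± 44.4 CPM of Ctss, in each case next after microglia-like cells. Astrocyte-like cells had 12960 ± 3216 CPM of Cst3 in sham. Atp6v0d2, almost absent elsewhere, had 8 of its 17 UMIs in sham choroid-plexus-like cells and 7 in infarction macrophage-like cells.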
